A study of Bos taurus with 8 samples.

Results

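The genes described here carry out steroid synthesis and the sulfation of estrogen, and they were followed in cultured cattle cells of embryonic origin, called embryo-derived stem-like cells (eSLCs), with somatic cells (SCs) for comparison. The set holds 9 genes of the 12603 that the array names: STAR, CYP11A1, FDX1, FDXR, HSD3B1, CYP17A1, CYP19A1, HSD17B1 and SULT1E1. They were picked by their roles in the pathway, without a rule on signal but with earlier results of these data known. Their 28 probes were found through the RefSeq accession that the array design gives each probe. RNA came from HanWoo cattle cells, each sample on its own array in a single colour. Lines I2 (passage 35) and I9 (passage 30) derive from in vitro produced (IVP) embryos, lines N2 (passage 36) and N7 (passage 30) from nuclear transfer (NT) embryos made with ear skin donor cells, and lines P1 (passage 31) and P4 (passage 36) from parthenogenetic (PA) embryos. SCs, whose tissue the labels do not give, were sampled at passages 5 and 10. All eSLCs grew from blastocysts placed on inactivated murine STO feeder cells, in a serum-free medium with the inhibitors PD184352 (MEK), SU5402 (FGF receptor) and CHIR99021 (GSK3), whereas SCs grew in DMEM with serum, so that cell type, medium and feeder cannot be told apart. Each origin was represented by 2 lines, and the labels do not say whether the SC passages are independent cultures. The p-values of limma, the linear model used below, therefore rest on the spread between the 2 arrays of a condition, pooled over the conditions. That spread may in part be technical, and no p-value here reaches beyond these 8 samples.

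Steroid hormones are made from cholesterol in a fixed order. STAR brings cholesterol to the inner mitochondrial membrane, where CYP11A1 cuts its side chain to give pregnenolone with electrons passed from FDXR through FDX1. HSD3B1 turns pregnenolone into progesterone, CYP17A1 makes androgen precursors, CYP19A1 (aromatase) makes estrogens from androgens, HSD17B1 converts estrone into estradiol, and SULT1E1 attaches sulfate to estrogens. In ruminants the trophoblast, the outer lineage of the embryo that builds the placenta, is known as a steroid-making tissue that releases much of its estrogen as sulfate.

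Values are background-subtracted signals divided by the 75th percentile of their array, which is set to 1000. This scale compares 1 probe between arrays and does not compare levels between genes. Signals under a floor of 13.28, the highest over the arrays of the lowest signal well above background, were raised to it before log2 was taken. Between 71.2% and 76.7% of the spots of an array were well above background and no spot was saturated. Each gene is represented by its brightest probe unless stated. A gene was called when limma gave an adjusted p (Benjamini-Hochberg over 10957 genes) under 0.05 and the difference was at least 2-fold.

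Of the 9 genes, 7 were called higher in eSLCs than in SCs, namely STAR, CYP11A1, FDXR, HSD3B1, CYP17A1, CYP19A1 and SULT1E1, where 19.7% of all genes tested were called higher. None was called lower, where 15.7% of all genes were. As the 9 genes were chosen with earlier results of these data known, these shares only describe them. The median log2 difference of the 9 genes was 4.22, or 4.38 with the genes not well above background in SCs at their lower bound, and that of all genes tested was 0.23. On all 6 eSLC arrays the signal lay above both SC arrays for 8 of the 9 genes, HSD17B1 being the exception, and the same held for 34.0% of all genes tested. The arrays lay on 2 slides, the first with SC P5 beside I2, I9 and N7, the second with SC P10 beside the remaining lines. Within slide 1, where 3 eSLC arrays faced 1 SC array, the log2 differences of the 7 called genes were 2.06 to 8.89, and within slide 2 they were 2.34 to 9.26. At the level of single probes, 19 of the 28 were called higher, against 17.9% of the 22822 probes tested. In bulk RNA, more RNA per cell and a larger share of cells with the RNA cannot be told apart.

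**Figure D1:**
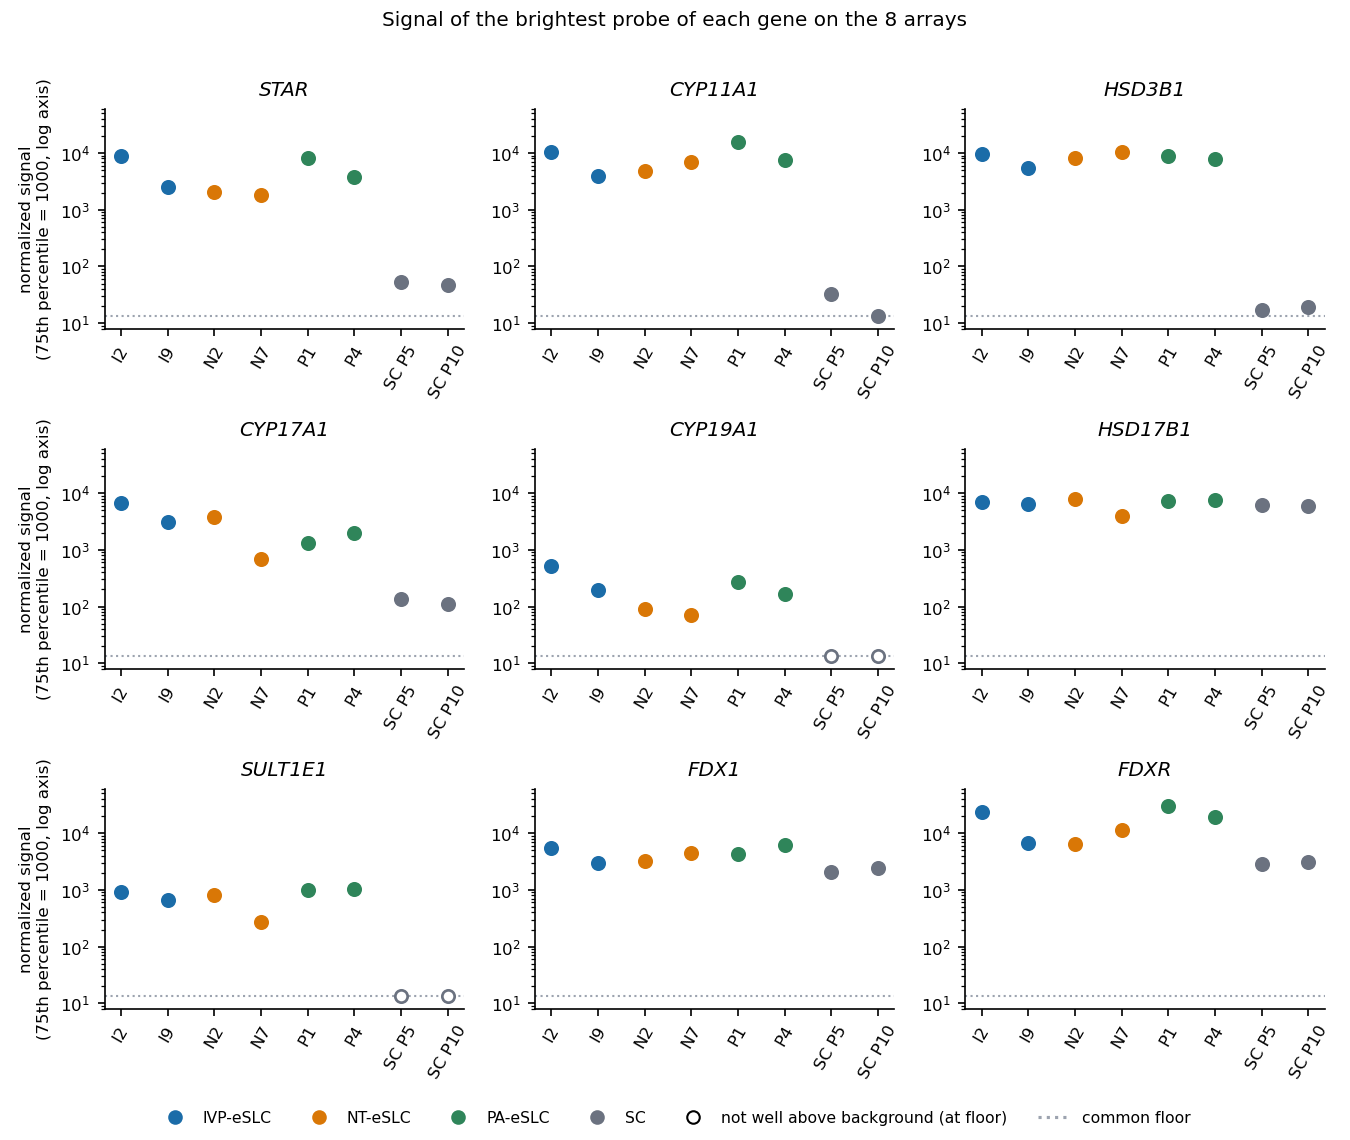
Normalized signal (75th percentile of the array = 1000, log axis) of the brightest probe of each of the 9 genes on the 8 arrays, coloured by condition, with open points for arrays not well above background and the dotted line at the common floor of 13.28. The 6 eSLC arrays lie far above the 2 SC arrays for STAR, CYP11A1, HSD3B1, CYP17A1, CYP19A1 and SULT1E1, and lie among them for HSD17B1.

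STAR, the carrier of cholesterol into the mitochondrion, had normalized signals of 8779 in I2, 2535 in I9, 2045 in N2, 1832 in N7, 8094 in P1 and 3703 in P4, while SC P5 had 53.2 and SC P10 had 47.2. Every eSLC line was far above both SC arrays, and I2 and P1 stood highest. The log2 difference between eSLCs and SCs was 6.20 (SE 0.521), or 73.5-fold, with an adjusted p of 0.000327 by limma. All 4 STAR probes were called. The other 3 were well above background on all 6 eSLC arrays and on neither SC array.

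CYP11A1, the side-chain cleavage enzyme that commits cholesterol to steroids, gave 10550 in I2, 3977 in I9, 4736 in N2, 6916 in N7, 15390 in P1 and 7457 in P4. SC P5 gave 32.1 and SC P10 gave 12.8, which is under the floor. The groups did not overlap, with P1 highest and I9 lowest among the lines. The log2 difference was 8.48 (SE 0.544), or 356-fold, with an adjusted p of 0.00012 by limma, and all 3 probes were called. With a single SC array left out the log2 difference was 9.11 without SC P5 and 7.84 without SC P10.

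FDXR is the reductase that passes electrons to FDX1. It gave 23400 in I2, 6694 in I9, 6354 in N2, 11140 in N7, 30350 in P1 and 19160 in P4, while SC P5 gave 2893 and SC P10 gave 3058. Unlike CYP11A1, it was bright in SCs too. The log2 difference was 2.20 (SE 0.511), or 4.59-fold, with an adjusted p of 0.0157 by limma, and both probes were called at nearly the same difference (2.13 and 2.20). This call rested on having both SC arrays, since the adjusted p was 0.13 without SC P5, 0.117 without SC P10 and 0.123 with their average as 1 sample.

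FDX1, the small iron-sulfur protein that hands the electrons to CYP11A1, gave 5525 in I2, 3000 in I9, 3175 in N2, 4468 in N7, 4332 in P1 and 6071 in P4, while SC P5 gave 2065 and SC P10 gave 2449. All 6 lines lay above both SC arrays, by a small margin in I9 and N2. The log2 difference was 0.93 (SE 0.302), or 1.9-fold, with an adjusted p of 0.0471 by limma, so that FDX1 passed the test and missed the 2-fold minimum. Its second probe had a log2 difference of 0.51. Without I9 the difference was 1.08 with an adjusted p of 0.0246, past both thresholds, and without any other single array the adjusted p was 0.0597 to 0.252.

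HSD3B1, which forms progesterone, was the most even of the 9 genes across the lines. Its signals were 9708 in I2, 5330 in I9, 8024 in N2, 10380 in N7, 8729 in P1 and 7868 in P4, while SC P5 gave 17.1 and SC P10 gave 19.6. The log2 difference was 8.80 (SE 0.265), or 446-fold, with an adjusted p of 8.39e-06 by limma. This was the largest fitted difference in the set with all arrays, while without SC P5 that of CYP11A1 was larger (9.11 against 8.70). All 3 probes were called, and the dimmer pair was under the floor in SCs.

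CYP17A1, which makes androgen precursors from progestogens, varied more between lines than any other gene of the set. It gave 6809 in I2, 3125 in I9, 3850 in N2, 686.5 in N7, 1294 in P1 and 1992 in P4, while SC P5 gave 136.6 and SC P10 gave 110.3. Even the lowest line, N7, was 5.03 times the higher SC array. The log2 difference was 4.22 (SE 0.679), or 18.7-fold, with an adjusted p of 0.00403 by limma, and both probes were called. As for FDXR, the call needed both SC arrays, with an adjusted p of 0.0559 without SC P5, 0.0617 without SC P10 and 0.0577 with their average.

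CYP19A1, the aromatase, was well above background on all 6 eSLC arrays and on neither SC array. It gave 516.7 in I2, 196.3 in I9, 90.6 in N2, 70.5 in N7, 271.3 in P1 and 163.7 in P4, while SC P5 gave 3.64 and SC P10 gave 3.26. The eSLC mean was at least 20.8-fold higher than the SC limit, taken on each SC array as its dimmest signal still well above background. The fit itself set both SC arrays at the floor, without spread, and gave 13.2-fold with an adjusted p of 0.000889 by limma. Later folds given as at least a value also take their adjusted p from such a fit. Of the 9 genes, CYP19A1 and SULT1E1 had this pattern of presence in eSLCs and absence in SCs, as did 3.66% of all genes tested. Only the brightest of its 5 probes was called. The other 4 gave signals of at most 60.8 in any eSLC line and were under the floor on both SC arrays.

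HSD17B1, the enzyme of the last step to estradiol, did not follow the others. Its brightest probe gave 6830 in I2, 6483 in I9, 7870 in N2, 3900 in N7, 7302 in P1 and 7556 in P4, while SC P5 gave 6239 and SC P10 gave 5916. The SC arrays lay inside the range of the eSLC lines. The log2 difference was 0.10 (SE 0.275) with an adjusted p of 0.794 by limma, and it turned to -0.044 under quantile normalization and to -0.073 without N2. The other 2 probes, which were dimmer, gave log2 differences of 1.67 (SE 0.569, adjusted p 0.057) and 0.71 (SE 0.253, adjusted p 0.0643) by limma. The first of these had 31.6 to 189 in eSLCs against 23.3 and 25.4 in SCs, so that all 6 lines lay above both SC arrays on a probe that was not called. In PA-eSLCs alone, limma called HSD17B1 higher than in SCs with the mean of its probes (1.22, adjusted p 0.0236) and with the series matrix values (2.53, adjusted p 0.042). In that matrix the brightest probe held the same values as a dimmer HSD17B1 probe in I2 (347.3) and SC P5 (74.89). Its SC P10 value was 74.83, nearly that of SC P5, so that the matrix call is no independent reading of this probe.

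SULT1E1, the estrogen sulfotransferase, gave 933 in I2, 659.7 in I9, 822.1 in N2, 276.3 in N7, 999.9 in P1 and 1053 in P4. It was not well above background on either SC array, where the signals were -3.28 and 7.99. The eSLC mean was at least 86.2-fold above the SC limit. With both SC arrays at the floor, limma gave 54.7-fold with an adjusted p of 0.000178. All 4 probes were called. One of them was well above background in SCs as well, at 23.0 and 20.9 against 160.8 to 688 in the eSLC lines, a log2 difference of 4.34 (SE 0.43, adjusted p 0.00077 by limma).

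**Figure D2:**
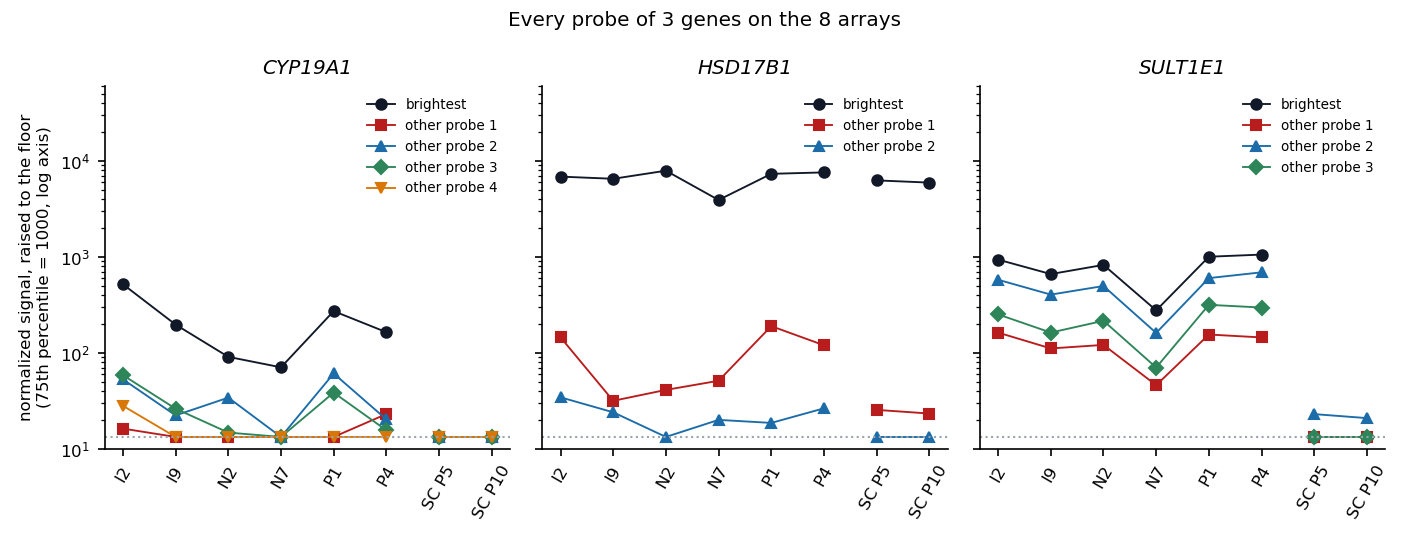
Normalized signal (log axis, raised to the floor drawn as a dotted line) of every probe of CYP19A1, HSD17B1 and SULT1E1 on the 6 eSLC and 2 SC arrays, 1 line per probe. The 4 SULT1E1 probes run in parallel with a low point in N7, the 4 dimmer CYP19A1 probes lie between the floor and 60.8, and the 3 HSD17B1 probes do not share a pattern.

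Taken by origin, the number called higher than SCs was 7 of 9 in IVP-eSLCs (17.7% of all genes), 6 in NT-eSLCs (15.8%) and 8 in PA-eSLCs (20.3%), and these comparisons share the SC arrays. STAR, CYP11A1, HSD3B1, CYP17A1, CYP19A1 and SULT1E1 were called in all 3 origins. For HSD3B1 the log2 differences from SCs were 8.62 in IVP-, 8.96 in NT- and 8.82 in PA-eSLCs. FDXR was called in IVP-eSLCs (2.07, SE 0.626, adjusted p 0.0452 by limma) and PA-eSLCs (3.02, SE 0.626, adjusted p 0.0123), while in NT-eSLCs it was 1.50 (SE 0.626, adjusted p 0.116). FDX1 was called in PA-eSLCs alone (1.19, SE 0.369, adjusted p 0.0456), at 0.86 in IVP- and 0.74 in NT-eSLCs. Both calls lay near the threshold, and both were lost with the slide as a block, at an adjusted p of 0.119 for FDXR in IVP-eSLCs and 0.0925 for FDX1 in PA-eSLCs. The adjusted p of FDXR in IVP-eSLCs was 0.0136 without I9 and 0.0595 to 0.194 without any other single array, and that of FDX1 in PA-eSLCs was 0.0323 or 0.034 without I9 or I2 and 0.0541 to 0.202 without any other. The CYP17A1 call was lost in 5 of 21 alternatives in IVP-, 7 in NT- and 6 in PA-eSLCs, among them leaving out either SC array in each origin (adjusted p 0.0537 to 0.123), P4 in NT-eSLCs (0.0554), and P1 (0.0678) or P4 (0.103) in PA-eSLCs. In NT-eSLCs the CYP19A1 call was lost in 9 of 20 alternatives, with an adjusted p of 0.0633 without N2, 0.0881 without SC P5 and 0.0809 without SC P10.

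**Figure D3:**
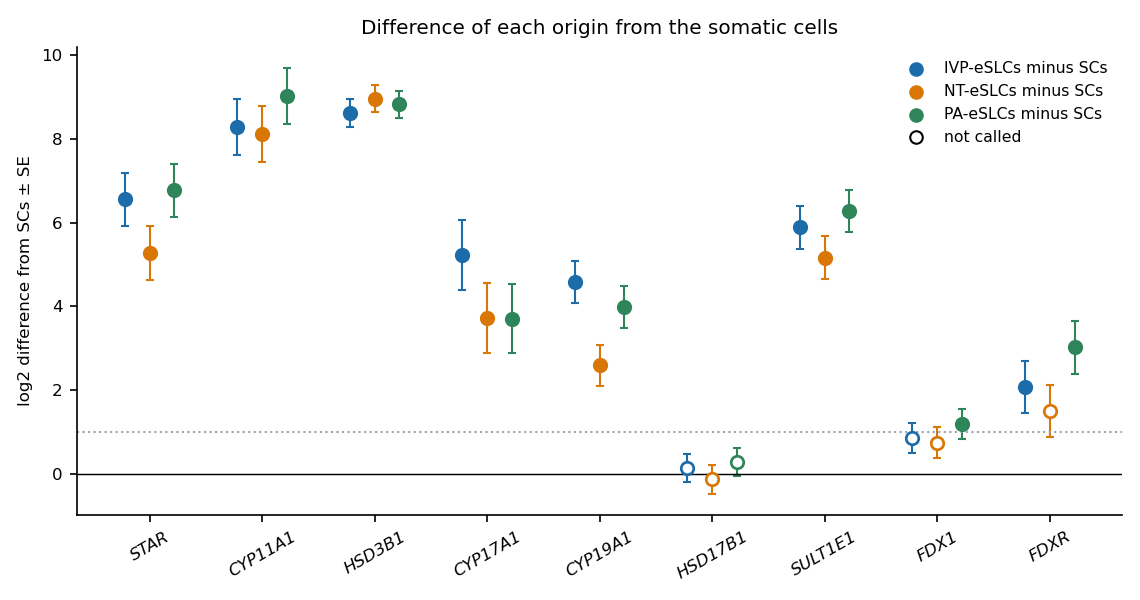
Log2 difference of each gene between IVP-, NT- or PA-eSLCs and SCs (points, with SE from limma), filled where called and open where not, with SC signals under the floor raised to it and the dotted line at 2-fold. CYP11A1 and HSD3B1 lie above 8 in all 3 origins, while HSD17B1 lies near 0 in all 3.

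Between origins, no gene of the set was called. Limma called 0 of all genes between NT- and IVP-eSLCs (0.0%) and 0 between PA- and IVP-eSLCs (0.0%), with 306 and 568 genes at an unadjusted p under 0.05. For NT- against IVP-eSLCs this count of 0 depended on the setting, with 130 genes called higher and 21 lower without N2, and 101 higher and 9 lower with the series matrix values. In the series matrix, SC P5 and SC P10 lay within 1% of each other for 9359 of 43653 probes, and some values recurred between probes. The effect of this on the matrix counts was not tested. The methods' t-test with the same adjustment called 0 and 1 gene and none of the 9. The smallest p in the set belonged to CYP19A1, which was lower in NT- than in IVP-eSLCs by a log2 difference of -1.99 (SE 0.495, unadjusted p 0.007, adjusted p 1 by limma), the lines N2 and N7 both lying under I2 and I9. On a dimmer CYP19A1 probe, N2 (34.1) lay above I9 (22.3). By the fold alone and without a test, CYP19A1, CYP17A1 (-1.50) and STAR (-1.29) were at least 2-fold lower in NT- than in IVP-eSLCs, as were 3.18% of all genes. CYP17A1 was also at least 2-fold lower in PA- than in IVP-eSLCs (-1.52), as were 2.69%. For STAR the gap between the lines I2 and I9 was 1.79 on the log2 scale and exceeded the difference between those origins.

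All 9 genes differed between the lines at least as much as the median gene. Over the 9872 genes well above background on all 6 eSLC arrays, the median range from the lowest to the highest line was 1.92-fold, and each gene of the set exceeded it. CYP17A1 ranged 9.92-fold, CYP19A1 7.33-fold, STAR 4.79-fold, FDXR 4.78-fold, CYP11A1 3.87-fold and SULT1E1 3.81-fold. Among those genes, CYP17A1 lay at the 95.9th percentile of the range and SULT1E1 at the 85.5th. FDX1 (2.02-fold), HSD17B1 (2.02-fold) and HSD3B1 (1.95-fold) were close to the median. No single line was lowest or highest throughout. N7 was the lowest line for 5 genes (STAR, CYP17A1, CYP19A1, HSD17B1 and SULT1E1) and the highest for HSD3B1. I9 was the lowest for 3 (CYP11A1, HSD3B1 and FDX1), and N2 for FDXR. How often each line was the lowest over all genes was not counted. On 2 of the 4 STAR probes N2 was lower than N7.

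The genes fell into different line patterns. Over the 6 eSLC arrays, CYP11A1 and FDXR moved alike (Pearson r of 0.955 on the log2 scale), as did STAR and CYP19A1 (r = 0.909), STAR and FDXR (r = 0.866) and STAR and CYP11A1 (r = 0.832), all being high in I2 and P1. HSD17B1 and SULT1E1 formed another pair (r = 0.957), both lowest in N7. CYP17A1 went with neither CYP11A1 (r = -0.184) nor FDXR (r = -0.107), and was highest in I2 and N2 and lowest in N7 and P1. These values describe 6 arrays that differ in line, origin, passage and slide. Other probes of the same gene matched the brightest one to different degrees. For STAR the 3 other probes gave r of 0.985 to 0.996 with the brightest probe over the 6 lines, for SULT1E1 0.985 to 0.999, for CYP11A1 0.987 and 0.992, for CYP17A1 0.988, for FDXR 0.955 and for FDX1 0.902. For HSD3B1 they were 0.791 and 0.949, and for CYP19A1, whose other probes were dim, 0.222 to 0.949. For HSD17B1 the values were 0.305 and -0.043, and neither of its dimmer probes was lowest in N7, so that the N7 low point of HSD17B1 was seen on 1 probe of 3. For SULT1E1 all 4 probes were lowest in N7, with 160.8 against at least 403.3 in the other lines on the second brightest.

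**Figure D4:**
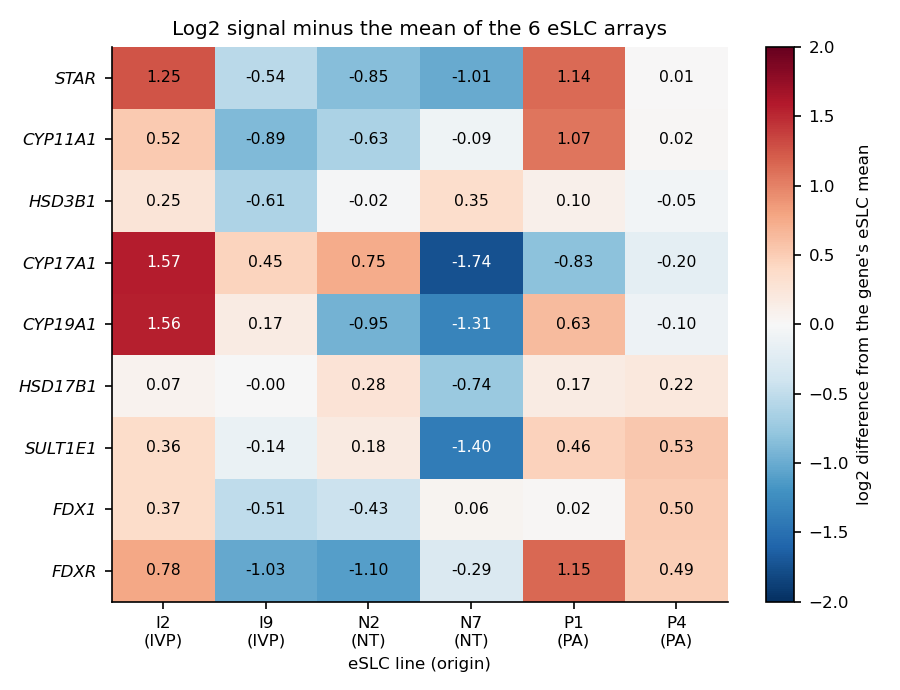
Log2 signal of each gene in each eSLC line minus the mean of the 6 eSLC arrays, red for above and blue for below, with the value printed in each cell. STAR, CYP11A1 and FDXR are high in I2 and P1, CYP17A1, CYP19A1 and SULT1E1 are lowest in N7, and HSD3B1 is even.

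N7 also stood apart in genes outside the set. APOA1, a plasma lipoprotein gene of liver and of extraembryonic endoderm, had 112600 in N7 and 1097 to 6823 in the other 5 lines, GATA4, an endoderm and gonad transcription factor, had 2918 in N7 and 23.1 to 179.8 in the others, and the trophectoderm keratin KRT8 was lowest there at 135100, against 187600 to 378600. Of the other trophectoderm markers tested, KRT18, GATA3, ELF3 and TFAP2A were also lowest in N7. CDX2 (6567 in N7, 5183 in I9), GATA2 (32280 in N7, 31520 in I2) and TFAP2C (10690 in N7, 9294 in N2) were not. Of 4 hepatocyte markers tested, none was higher in eSLCs and TTR was lower. The summed signal of the 6 hepatocyte markers on the array, tested or not, was 1212 to 112900 in eSLCs against 7480 and 8595 in SCs. APOA1, GATA4 and KRT8 were picked after their values were seen. Their part in the low N7 signals of STAR, CYP17A1, CYP19A1, HSD17B1 and SULT1E1 was not tested.

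Within each origin the 2 lines also differed in passage. On their brightest probes, CYP17A1, HSD17B1 and SULT1E1 were higher in the later passage line of all 3 origins (I2, N2 and P4). The same held for 6.51% of genes well above background on all 6 eSLC arrays. For CYP17A1 the log2 gaps were 1.12, 2.49 and 0.62, and for SULT1E1 they were 0.50, 1.57 and 0.07. For HSD17B1 they were 0.075, 1.013 and 0.049, small in the IVP and PA pairs. The other CYP17A1 probe kept this order. Both dimmer HSD17B1 probes had N2 under N7, at 41.03 against 51.07 on the brighter of them. The second brightest SULT1E1 probe kept the order, while its remaining probes had P4 under P1 (295.8 against 315.5, and 144.4 against 154.8). The count of genes higher in the later line was made after the values were seen and has no test. Line and passage cannot be told apart.

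By the rule of highest Pearson r over the 6 eSLC arrays among 9871 genes, the patterns most like each member were found in genes of other kinds. TMEM108 (r = 0.998), PRCP and HNRNPA3 were closest to FDXR, HAPLN3 (r = 0.992), RSU1 and DUSP1 to STAR, and LUC7L3 (r = 0.996), HIP1 and CSNK2A1 to CYP11A1. CHST10 (r = 0.994) and NRTN were among the closest to CYP17A1. CRISPLD2 (r = 0.99), TAFA5 and AP3B1 were closest to CYP19A1, and UBE2W (r = 0.989), CFLAR and ZNF444 to SULT1E1. RALGDS (r = 0.998), CYRIB and H2AJ were closest to HSD17B1, PTGR2 (r = 0.996), DCUN1D1 and ECD to FDX1, and MTUS1 (r = 0.966), FXYD6 and MCL1 to HSD3B1. Such values are common over 6 points, since 175 genes reached an r of 0.95 with FDXR and 105 with STAR. HSD3B1, the most even gene, had 3. The likeness within eSLCs did not carry over to SCs for HAPLN3, which had 33730 and 30960 in SCs and at most 222.2 in any eSLC line, whereas TAFA5 resembled CYP19A1 there too, at 0.33 and -0.04.

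Around the 9 genes, other steroid genes were called in both directions at shares near those of all genes. Of 105 listed genes in 6 lists, 71 were tested, of which 17 (23.9%) were called higher in eSLCs, against 19.7% of all genes, and 14 (19.7%) lower, against 15.7%. Their median log2 difference was 0.14. In cholesterol supply, 1 of 11 genes tested was higher and 3 were lower. SOAT1, which stores cholesterol as esters, was higher by 2.82 (SE 0.229, adjusted p 0.000287 by limma), with 5760 to 11540 in eSLCs and 1078 and 1156 in SCs. TSPO, a mitochondrial outer membrane protein, was lower (-3.56, SE 1.09, adjusted p 0.0395 by limma), though it was called in no single origin. Its signals ran from 1668 in N7 to 27640 in N2, against 95040 and 104200 in SCs. LIPA, the lysosomal lipase, was lower as well (-1.01, SE 0.26, adjusted p 0.0224 by limma). By origin it was called in NT- and PA-eSLCs and not in IVP-eSLCs. Of the 4 electron donors and cofactors, CYB5A, the cytochrome b5 that aids CYP17A1, was higher (1.88, SE 0.2, adjusted p 0.000823), and POR, which feeds electrons to CYP17A1 and CYP19A1, had a log2 difference of 0.13 (adjusted p 0.708).

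Among the other steroid enzymes, 6 of 22 tested were higher and 4 lower. The largest rise was that of DHRS9, a short-chain dehydrogenase (7.97, SE 1.31, adjusted p 0.00436 by limma), which had 523.7 in N7 and up to 16490 in N2, against 17.4 and 10.4 in SCs. HSD17B11 (3.51), AKR1B1 (2.76) and HSD17B14 (2.29), which also reduce or oxidize steroids among other substrates, were higher too. CYP27A1, the sterol 27-hydroxylase that uses the same electron chain as CYP11A1, was lower (adjusted p 1.5e-05), with 1359 and 1059 in SCs and at most 22.2 in eSLCs, where 2 of 6 arrays were well above background. HSD11B1, which forms active cortisol from cortisone, was lower too (adjusted p 0.000199 by limma). It had 494.9 and 199.7 in SCs and at most 12.2 in eSLCs, where 1 of 6 arrays was well above background. Also lower were HSD3B7 (-4.00) and CYP39A1 (-1.90), both of bile acid synthesis. By origin, CYP39A1 was called in NT-eSLCs alone. The adrenal enzymes CYP21A2 (0.26, adjusted p 0.629) and CYP11B1 (0.28, adjusted p 0.565) were not called.

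In sulfate and glucuronide conjugation, 4 of 15 genes tested were higher and 6 lower. UGT1A1, a glucuronosyltransferase, had 7398 to 15870 in eSLCs with neither SC array well above background, at least 1329-fold more (adjusted p 1.1e-05 by limma). UGT1A6 had 408.2 to 854.3 in eSLCs, at least 74.1-fold more (adjusted p 0.000106). Both are products of 1 locus with shared last exons, and whether their probes tell them apart was not tested. SULT4A1 (96.0 to 195 in eSLCs, and 7.32 and 16.9 in SCs) and the exporter ABCG2 (3.75), which carries sulfated estrogens, were higher. PAPSS2, 1 of the enzymes that make the sulfate donor for SULT1E1, was lower (adjusted p 9.83e-05), with 1744 and 1709 in SCs and 6.24 to 36.9 in eSLCs, where 5 of 6 arrays were well above background, while its relative PAPSS1 had 1602 to 2097 in eSLCs and 2308 and 2276 in SCs (-0.33, adjusted p 0.0995). SUMF2 (10.3 to 695.8 in eSLCs, and 1199 and 1143 in SCs), SULT1A1 (-2.69) and ABCC1 (-1.57) were lower as well. SULT1A1 and ABCC1 were called in no single origin, and SUMF2 in PA-eSLCs alone. SUMF2 had 429.5 to 695.8 in I9, N2 and N7 and 10.3 to 15.7 in I2, P1 and P4. STS, the sulfatase that reverses SULT1E1, was well above background in 4 eSLC lines and on neither SC array, and was not called (adjusted p 0.362).

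Of the 10 regulators tested, CREM, a cAMP-responsive factor, was the 1 called, with 48.1 to 134.3 in eSLCs and no signal well above background in SCs (at least 8.36-fold, adjusted p 0.00407 by limma). NR5A1, the main steroidogenic factor of gonads and adrenals, was not well above background on any of the 8 arrays, and its relative NR5A2 was so in N7 only, at 112.3. Among receptors and chaperones, 4 of 9 were higher and 1 lower. NR3C2, the mineralocorticoid receptor, rose by at least 70.3-fold (adjusted p 0.000322), and FKBP4 (2.21), PGRMC1 (1.66) and ESRRA (1.34) were higher. NR3C1, the glucocorticoid receptor, was lower (-3.32, SE 0.184, adjusted p 6.56e-05). ESR1 and ESR2, the estrogen receptors, were well above background on no array.

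**Figure D5:**
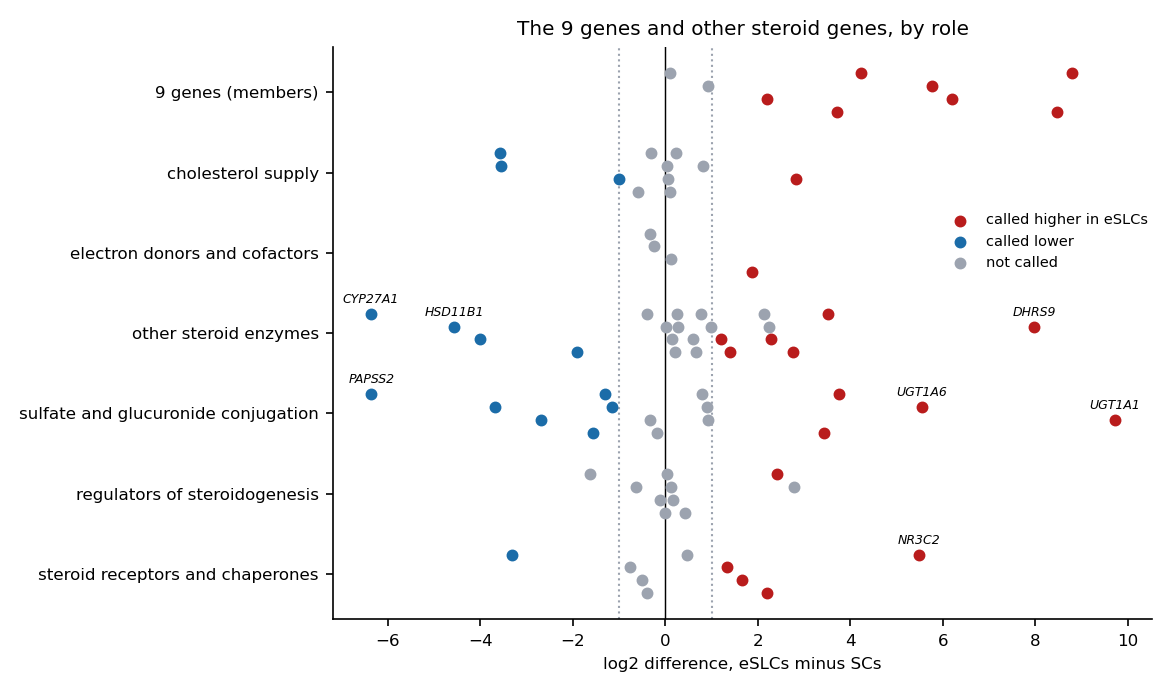
Log2 difference between eSLCs and SCs of the 9 genes (top) and of 71 other steroid genes in 6 lists, 1 point per gene, red for called higher, blue for called lower and grey for not called, with signals under the floor raised to it and dotted lines at 2-fold. Of the 9 genes 7 lie at 2.20 or above, whereas the other lists spread to both sides of 0.

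Markers of cell types moved with the comparison. Of 8 trophectoderm markers tested, 7 were higher in eSLCs and none lower, with a summed signal of 360800 to 969700 against 14670 and 15710 in SCs, and EOMES was well above background on no array. Of 10 fibroblast markers, 9 were lower in eSLCs, with a summed signal of 5453 to 10660 against 652900 and 809500. None of the 6 markers tested of gonadal or adrenal steroid-making cells was higher, INHA was lower, and NR5A1 and LHCGR were well above background on no array. Of 2 markers tested of binucleate trophoblast cells, the hormone-secreting cells of the ruminant placenta, neither was called. CSH2 was well above background on 4 eSLC arrays and on neither SC array, and PRP1 on all arrays. Summed signals, with the untested PAG9 included, were 42.7 to 212.9 in eSLCs and 50.8 and 57.4 in SCs. Neither of the 2 PAG genes listed gave a call, as PAG9 was well above background on 3 eSLC arrays and PAG1 was not named on the array. The part of cell type, medium and feeder cells in the steroid genes was not tested.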

How the data were processed

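RNA of 6 eSLC lines and 2 SC passages was hybridized to 8 one-colour Agilent bovine arrays. The authors deposited scanner intensities from Feature Extraction (version 11.5.1.1 per the file headers), not normalized between arrays, and a series matrix of normalized intensities (GeneSpring GX). Control and outlier spots (1 to 11 an array) were left out, which left 43653 probes, of which 26743 were named through RefSeq accessions (ARS-UCD2.0 gene table) for 12603 genes. Background-subtracted intensities were used, because the processed intensities were out of step with them in 6 files (Spearman's rho 0.16 to 0.22, against 0.97 in I2 and N2). The log2 values were fitted with 4 condition means by limma (version 3.58.1, run in R version 4.3.3). eSLCs were the mean of the 3 origin means. The step was tested on simulated data.

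The 9 genes, the other lists and the tests were chosen with earlier results of these data known. Named genes of a list are the called ones, up to 4 in each direction, and others named were chosen after their values were seen. Alternatives covered the signal column, background correction, scaling, floor, filter, probe rule, SC arrays, fit, test, slide and left-out arrays. The mean signal planned for normexp was replaced by the median signal. Sequences, coordinates and promoter motifs were not analysed here. A few genes that the rules would name are not reported here by name. Figures were drawn with matplotlib version 3.10.9.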

Additional observations from a re-analysis of the deposited data

Results flagged for a closer look

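Among the 6 eSLC arrays, 1 array lay far from the others for 2 of the 9 genes, and it was N7 in both. HSD17B1 had a normalized signal of 3900 in N7, where the gap to the next line was 0.724 of the whole log2 range. SULT1E1 had 276 in N7, with a gap of 0.651 of the range. Both exceed the limit of Dixon's criterion for 6 samples, which chance passes in about 1 in 20 groups. The share of all genes that pass it was not computed. These 2 genes moved alike over the 6 lines (r = 0.957), so they are not 2 separate readings. The low SULT1E1 signal recurred on its other 3 probes, and that of HSD17B1 did not recur on its other 2.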

How the results depend on the processing

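With 2 arrays per condition, the SC arrays set much of the result. The number of the 9 genes called higher in eSLCs was 7, and 5 to 8 with 1 array left out (a lone SC sample being assumed to vary like the other groups). For PA-eSLCs it was 8, with 5 to 8 when an array was left out (5 without P1, P4, SC P5 or SC P10) and 5 with the SC arrays as 1 sample. Over all genes tested, too, fewer were called higher without P1, P4 or either SC array. The methods' t-test called 2 genes each in IVP- and NT-eSLCs, where limma called 7 and 6. Of all 10957 genes tested, the t-test called 445 and 158 higher, where limma called 1938 and 1735. The 2-fold criterion without a test gave 3 genes for NT- and 1 for PA- against IVP-eSLCs, where limma called 0. Over all genes tested, calls higher in eSLCs fell from 2155 to 242 with the processed signals of the scanner software, out of step in 6 files. These signals gave 2 of the 9 genes for eSLCs, 1 for each origin and 0 of the 71 pathway genes. With them the differences from SCs of STAR (-0.47 in eSLCs, -0.19 in IVP, -1.85 in NT), CYP19A1 (-1.50, -1.13, -2.69 and -0.67 in PA) and SULT1E1 (-1.40, -1.78, -2.27 and -0.15) turned negative, HSD3B1 in PA-eSLCs was 0.00 and HSD17B1 in NT-eSLCs 0.40. HSD17B1, near 0, also changed sign under quantile normalization (-0.044 in eSLCs, -0.003 in IVP) and with the mean of its probes (0.36 in NT, and called at 1.22 in PA), and with 1 array left out it ranged from -0.073 without N2 to 0.265 without N7 in eSLCs and from -0.64 to 0.37 in NT-eSLCs. The cause was not tested. CYP11A1 was called for eSLCs under all 22 alternatives. In the series matrix, SC P5 and SC P10 lay within 1% of each other for 9359 of 43653 probes, 7 of the 28 studied here among them. All genes had a median difference of 0.23, and of 0.12 under quantile normalization. No paired analysis was possible because the labels number every sample as replicate 1.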
